A study of Mus musculus with 9 samples.

Results

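The comparison was of 3 libraries labelled heterozygous for Tcf4 (Het) with 3 labelled wild type (WT), which were 6 of the 9 libraries of the series. The other 3 were labelled knockout (KO). All were bulk RNA-seq libraries of dorsal telencephalon, the part of the forebrain that forms the cerebral cortex and hippocampus, taken from pups at postnatal day 0. All 3 genotypes shared a strain label that joins B6 and 129SF2/J with a colon. No treatment or age set the groups apart. The labels state neither the mutant allele nor the sex, nor how many pups or litters went into a library. The p-values therefore measure the spread between these libraries, which may be technical.

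Tcf4 encodes an E protein, a widely expressed basic helix-loop-helix (bHLH) transcription factor. E proteins pair with cell-type-restricted bHLH factors, such as the factors of the Neurog and Neurod families, and the pairs bind E-box words in DNA. Id proteins lack the DNA-binding part and hold E proteins in inactive pairs. In the newborn cortex the last neurons are leaving the progenitor zones, axons and synapses are forming, and astrocytes and oligodendrocyte precursors are starting to appear. The comparison asks which genes of this tissue differ with the heterozygous label.

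The WT libraries held 22291940 to 23813314 counts each and the Het libraries 24008445 to 29398411. Levels are given as CPM, a gene's counts relative to the library's total, with library sizes scaled by edgeR's TMM factors, and values of a group are listed in the order of replicates 1, 2 and 3. A gene was said to rise or fall where edgeR's quasi-likelihood test gave an adjusted p under 0.05 over all 15271 tested genes. Folds are log2 fold changes of Het over WT, with standard errors (SE).

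Tcf4 itself did not differ with the label, at 712, 728 and 584 CPM in WT and 822, 652 and 719 CPM in Het (log2 fold change 0.12 with SE 0.09, adjusted p = 0.33), and the groups overlapped. A gene-level count does not show the loss of a part of the gene, so the count neither checks the label nor goes against it, and every direction below rests on the labels. Emx1, a homeobox factor that marks progenitors and neurons of the dorsal forebrain, was present in every library, with 36.3, 43.1 and 41.4 CPM in WT and 56.3, 48.5 and 54.3 CPM in Het. All 6 libraries had Ddx3y counts of at least 794 and Xist counts of at most 1, so by these genes all 6 came from males. KO replicates 1 and 2 had Ddx3y counts of 1211 and 1040 and Xist counts of 3 and 2. KO replicate 3 had 2 and 2730, so by these genes it was female. The KO libraries were part of the fit that set the spread for each test.

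WT replicates 1 and 3 and Het replicate 1 stood apart from the other 6 libraries of the series. In these 3 libraries 19 genes were at least 4-fold below every other library, among genes of at least 1 CPM in those others, and 0 genes were as far above. The 19 included the chaperone gene Hsp90aa1, at 33.5, 929 and 31.2 CPM in WT and 34.4, 1073 and 973 CPM in Het, as well as Rpl12, Lars2, the mitochondrial ribosomal RNAs mt-Rnr1 and mt-Rnr2 and 6 genes with symbols that begin with Rrp. Their summed level was 141 to 178 CPM in the 3 libraries and 4763 to 6082 CPM in the other 6. The split crosses the genotype labels, and no gene of the 19 was called between Het and WT. Of the 7011 called genes, 6991 (99.7%) had the same direction in Het replicate 1 against WT replicates 1 and 3 as in Het replicates 2 and 3 against WT replicate 2. These genes were called from the same libraries. In 6686 of them Het and WT values did not overlap, which fixes the direction in any split. The agreement therefore says little about the 3 libraries. Among genes that were not called, the share was 58.3%. With a term for these 3 libraries, 3231 genes rose and 3306 fell. With the 3 libraries left out, which leaves a single WT library, 1898 rose and 2210 fell, and some of the genes named below kept their direction in that fit but were not called. Their log2 fold changes without the 3 libraries, to be read beside those given below, are Emx1 (0.25), Eps8l1 (2.26), Hey2 (-0.70), Heyl (-0.34), Sox4 (0.10), Epha3 (0.42), Pappa2 (0.50), Wfs1 (-0.24), Emcn (0.57), Tcf7l2 (-0.28), Sv2c (-0.97), Snap25 (-0.12), Pcdh18 (0.24), Tcf7l1 (-0.29) and Atf4 (0.71).

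**Figure D1:**
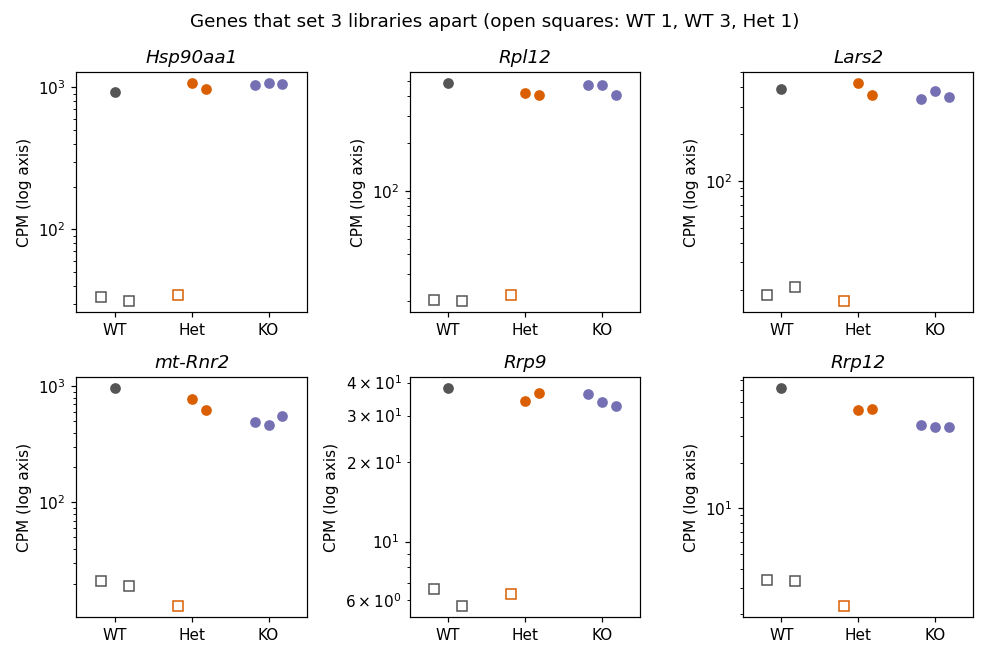
CPM on a log axis for 6 of the genes that separate WT replicates 1 and 3 and Het replicate 1 from the other 6 libraries; each point is 1 library, and libraries are in 3 columns by genotype. The 3 libraries lie at least 4-fold below every other library in each panel, in both WT and Het.

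WT and Het libraries also differed in the share of counts from processed pseudogenes, 0.292% to 0.359% in WT and 0.137% to 0.153% in Het. The share from mitochondrially encoded genes was 1.01% to 1.14% in WT and 0.769% to 0.84% in Het. In the KO libraries the 2 shares were 0.131% to 0.138% and 0.716% to 0.771%, so WT lay above both other labels. The part of such differences in the results below was not tested, and they cannot be told apart from the labels.

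Of 15271 genes with enough counts, 3434 rose in Het (22.5%) and 3577 fell (23.4%), so 45.9% were called in either direction. Most changes were small. Genes that rose at least 1.5-fold numbered 1147 (7.51%) and those that fell at least 1.5-fold numbered 1371 (8.98%). Genes that rose at least 2-fold numbered 452 (2.96%) and those that fell at least 2-fold numbered 655 (4.29%). The 3 Het values and the 3 WT values did not overlap in 6686 of the called genes, and over all tested genes the Het values were all above WT in 26.8% and all below in 26.8%. The median log2 fold change of all tested genes was 0.01. Each gene list below is to be read against these shares, and a list with about these shares called shows nothing particular to it. Where leaving out 1 library, or the 3 that stand apart, moved a list's count by over 1.5 times, the other count is given beside it. The fit without the 3 libraries called fewer genes in all. List counts from it are to be read against the totals of that fit, given above, and not against 22.5% and 23.4%. The lists held 62 groups and 1673 different tested genes.

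**Figure D2:**
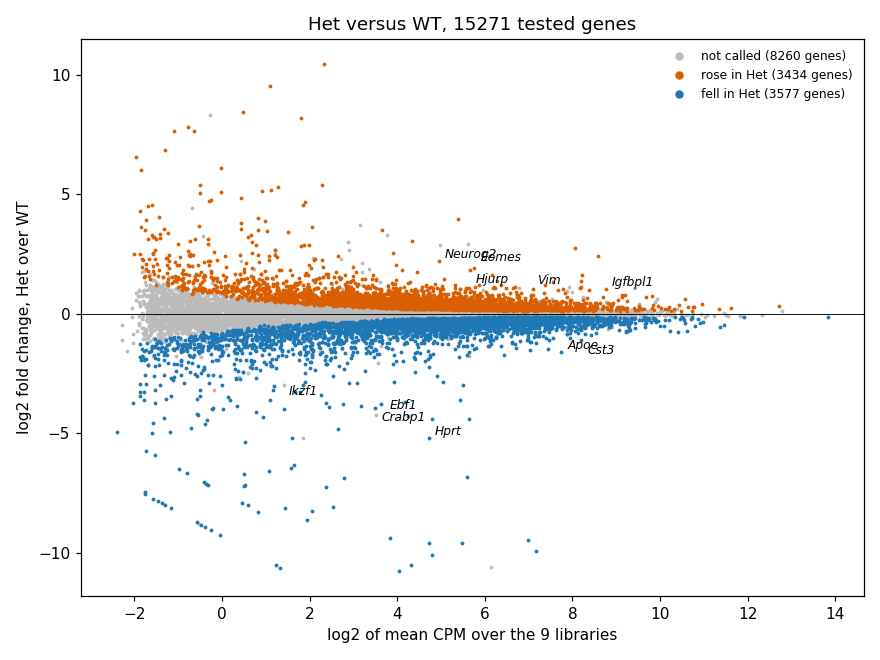
Log2 fold change of Het over WT (vertical axis) against the log2 of the mean CPM over the 9 libraries (horizontal axis) for 15271 tested genes. Each point is 1 gene, orange where it rose, blue where it fell and grey where it was not called. Called genes lie on both sides of 0 at every level, 3434 above and 3577 below, and some of the named genes are marked. Folds larger than those of Hprt and Eps8l1 belong to genes outside the rule for large folds, which left out low, unnamed, overlapping and mostly shared genes.

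Among mostly unique genes that reached the minimum level (1 for the mean log2 CPM), the largest falls were of Hprt and several genes of the striatum, the ventral forebrain region that lies below the cortex. Hprt, the purine salvage enzyme (chromosome X), had 41.5, 42.9 and 42.6 CPM in WT and 1.07, 0.711 and 1.66 CPM in Het (log2 fold change -5.2 with SE 0.15, adjusted p = 1.7e-12), with 36.1, 35.1 and 36.6 CPM in KO. Only the Het libraries were low among the 9, the KO over WT value being -0.24, SE 0.11 and not called, and the KO over Het value 4.96, SE 0.15, adjusted p = 2.0e-11. Whether the Het pups differed from WT and KO pups in an allele other than that of Tcf4, or in background, was not tested, and the labels do not state it. Every Het over WT value below is a difference between the labelled groups. Ebf1, a transcription factor of developing striatal neurons (chromosome 11, 44617317 to 45008091, plus strand, mm10), had 33.6, 33.8 and 28.1 CPM in WT and 1.76, 2.77 and 2.32 CPM in Het (log2 fold change -3.79 with SE 0.15, adjusted p = 7.9e-12). Ikzf1, a zinc finger factor, had 12.9, 14.6 and 13.1 CPM in WT and 1.07, 0.981 and 1.0 CPM in Het (log2 fold change -3.73 with SE 0.17, adjusted p = 4.2e-11). Zfhx3, a large zinc finger and homeobox factor, had 22, 19.1 and 12.4 CPM in WT and 2.62, 2.13 and 2.39 CPM in Het (log2 fold change -2.91 with SE 0.20, adjusted p = 3.0e-08). In each of these genes every WT value was at least 4-fold above every Het value. Crabp1, which binds retinoic acid in the cytoplasm, had 30.2, 30.7 and 33.7 CPM in WT and 2.05, 2.5 and 1.66 CPM in Het (log2 fold change -3.92 with SE 0.14, adjusted p = 1.6e-12). Strip2 had 15.4, 14.3 and 12.5 CPM in WT and 0.574, 0.913 and 1.31 CPM in Het (log2 fold change -3.89 with SE 0.20, adjusted p = 2.1e-10). Ntn1, the secreted axon guidance protein netrin-1, had 56.2, 42.5 and 46.3 CPM in WT and 9.06, 8.83 and 8.85 CPM in Het (log2 fold change -2.44 with SE 0.10, adjusted p = 1.5e-11). Zfp503, a zinc finger factor of the striatum, fell (-2.39, SE 0.16). The mean log2 CPM of a gene is pulled down where 1 genotype is near 0, so the minimum itself left out some large falls. Of the genes it left out whose falls were at least as large as the smallest taken, 5 had a mean of at least 2 CPM. Isl1, a LIM homeobox factor of striatal neurons, had 14.2, 11.3 and 11.5 CPM in WT and 0, 0.0338 and 0.0692 CPM in Het, and Six3, a homeobox factor of the ventral forebrain, had 20.6, 15.8 and 16.8 CPM in WT and 0.984, 0.711 and 0.207 CPM in Het (log2 fold change -4.83 with SE 0.31, adjusted p = 2.4e-07). The other 3 were Nkx2-1, described below, and Ankrd63 (-3.27) and Egr4 (-3.03).

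The largest rises were smaller in log2 fold change than the largest falls. Eomes, the T-box factor that marks intermediate progenitors of the cortex (chromosome 9, 118478212 to 118486132, plus strand, mm10), had 17.2, 12.1 and 18.5 CPM in WT and 58.8, 56.4 and 64 CPM in Het (log2 fold change 1.91 with SE 0.14, adjusted p = 1.5e-06). Hjurp, which loads the centromeric histone onto chromatin, had 17.7, 17.4 and 19.3 CPM in WT and 66.2, 59.7 and 66 CPM in Het (log2 fold change 1.82 with SE 0.07, adjusted p = 7.9e-12). Ncapd2, a condensin subunit that compacts chromosomes in mitosis, had 25.5, 24.2 and 26.9 CPM in WT and 71.8, 77.9 and 84.8 CPM in Het (log2 fold change 1.61 with SE 0.07, adjusted p = 1.8e-11). In these 3 genes every Het library was more than 2-fold above every WT library. Eps8l1, an actin regulator, had 0.994, 1.11 and 0.904 CPM in WT and 3.77, 4.5 and 6.19 CPM in Het (log2 fold change 2.26 with SE 0.41, adjusted p = 0.0017). Slc25a47, a carrier of the inner mitochondrial membrane, had 1.4, 1.38 and 1.59 CPM in WT and 5.04, 5.58 and 5.81 CPM in Het (log2 fold change 1.91 with SE 0.16, adjusted p = 9.4e-08). Slco2a1, a prostaglandin transporter, had 3.57, 4.45 and 3.06 CPM in WT and 10.9, 12.4 and 13.6 CPM in Het (log2 fold change 1.74 with SE 0.14, adjusted p = 7.2e-08). Dsc3, a desmosomal cadherin, was highest in Het, at 4.47, 2.67 and 2.8 CPM in WT and 11.1, 10.5 and 9.75 CPM in Het, with 1.5, 2.02 and 2.23 CPM in KO, so Het lay above both other labels (Het over WT 1.65, SE 0.18; KO over Het -2.44, SE 0.19, adjusted p = 1.8e-07). Htr3a, a serotonin receptor subunit of caudally derived interneurons, had 4.65, 3.79 and 3.96 CPM in WT and 16.9, 10.6 and 9.93 CPM in Het (log2 fold change 1.59 with SE 0.18, adjusted p = 6.1e-06). The same minimum left out 5 rises from a mean of at least 2 CPM, which were Rec8 (5.39), Gdf9 (5.19), Cdh15 (2.68), Cbx7 (2.66) and Dmrt3 (2.46). These 10 genes were chosen after their values were seen.

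**Figure D3:**
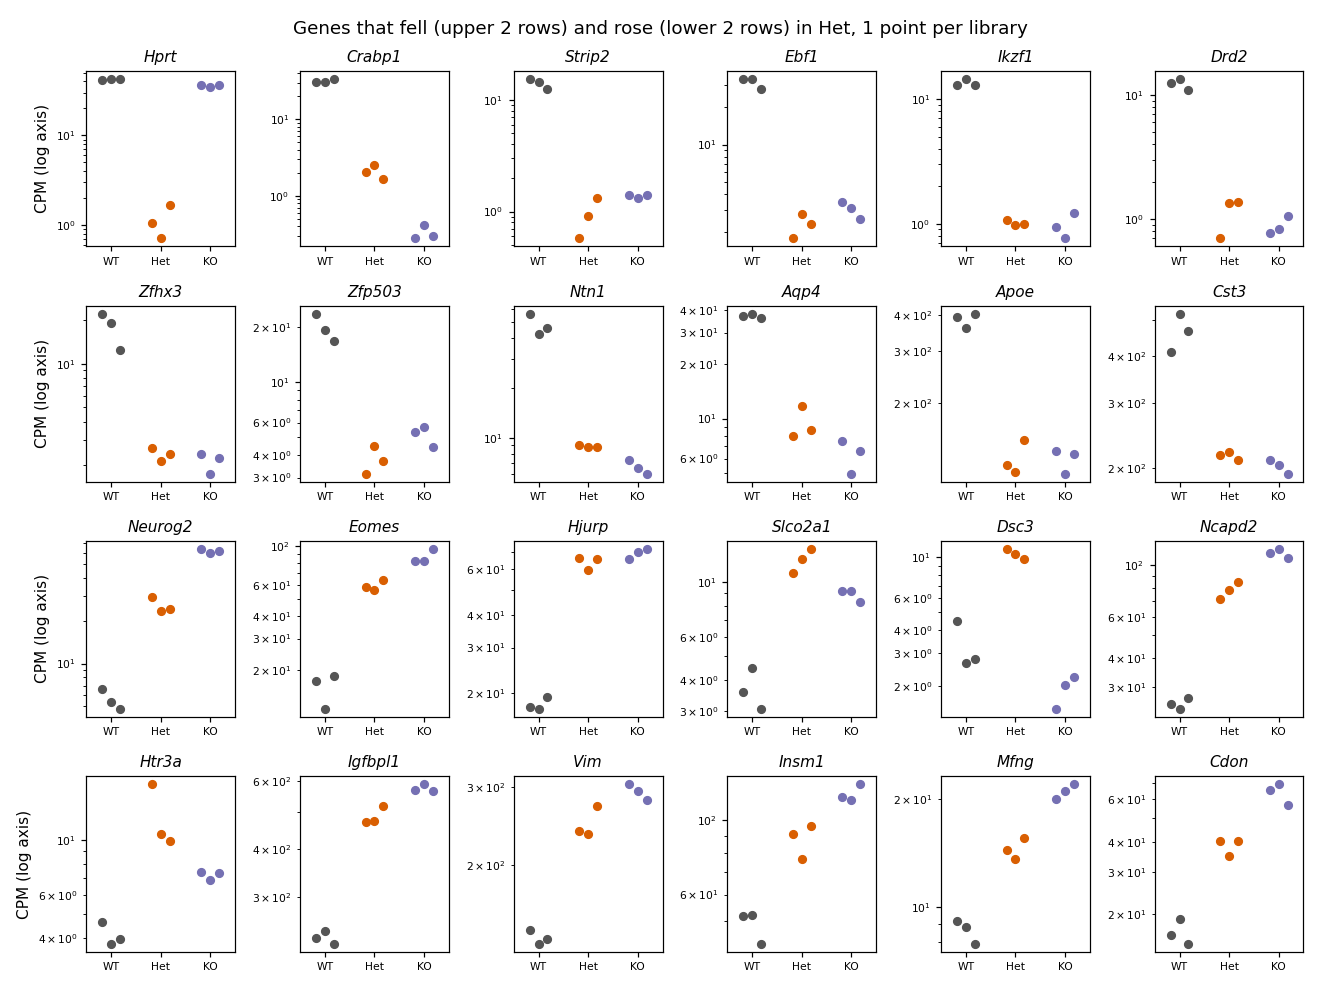
CPM on a log axis for 24 genes with large changes, 1 point per library, with WT, Het and KO libraries in different colours; genes that fell in Het are in the upper rows and genes that rose in the lower rows. WT and Het points do not overlap in any of the 24 genes, the KO points of Hprt lie near those of WT, and the KO points of Dsc3 lie below those of WT.

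Among the genes with the highest levels (a mean of at least 200 CPM), the rule took those with the largest folds in each direction. Apoe, the lipid carrier of astrocytes and microglia, had 395, 359.6 and 404 CPM in WT and 122, 115 and 149 CPM in Het (log2 fold change -1.58 with SE 0.10, adjusted p = 1.6e-07). Cst3, the secreted protease inhibitor cystatin C, had 411, 519 and 467 CPM in WT and 217, 220.5 and 210.5 CPM in Het (log2 fold change -1.11 with SE 0.07, adjusted p = 3.8e-09). Pcsk1n, an inhibitor of prohormone processing, had 509.7, 492 and 498 CPM in WT and 269.7, 270.4 and 272 CPM in Het (log2 fold change -0.89 with SE 0.06, adjusted p = 5.3e-09). Eef1a2, the elongation factor form of mature neurons, had 419, 437 and 447 CPM in WT and 232, 252 and 234 CPM in Het (log2 fold change -0.86 with SE 0.06, adjusted p = 4.5e-09). On the higher side, Igfbpl1, which marks young cortical neurons, had 235, 245 and 227 CPM in WT and 471, 475 and 518 CPM in Het (log2 fold change 1.05 with SE 0.06, adjusted p = 2.4e-10). Nfib, a nuclear factor I protein of cortical development, had 385, 382 and 302 CPM in WT and 702, 542 and 622 CPM in Het (log2 fold change 0.80 with SE 0.11, adjusted p = 0.00023). The WT and Het values did not overlap in any of these genes.

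Promoters of 4 genes at the ends of this ranking are shown, since E-box words are what an E protein and its partners bind. Each run is the 250 bases before the gene's start on its own strand, from RefSeq on GRCm38.p6, with every CANNTG word in capitals. CANNTG is its own reverse complement as a pattern, so both strands were covered.
Hprt (chrX:52987828-52988077, plus strand): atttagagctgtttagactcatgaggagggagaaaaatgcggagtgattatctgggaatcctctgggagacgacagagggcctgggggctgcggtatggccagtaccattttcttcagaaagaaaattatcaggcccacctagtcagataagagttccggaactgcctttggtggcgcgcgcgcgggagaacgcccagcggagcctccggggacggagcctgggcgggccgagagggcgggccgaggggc
Rxrg (chr1:167598112-167598361, plus strand): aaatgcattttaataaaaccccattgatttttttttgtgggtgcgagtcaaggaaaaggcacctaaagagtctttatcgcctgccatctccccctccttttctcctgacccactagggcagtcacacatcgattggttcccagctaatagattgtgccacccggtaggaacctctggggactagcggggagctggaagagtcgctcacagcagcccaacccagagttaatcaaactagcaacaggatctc
Neurog2 (chr3:127632886-127633135, plus strand): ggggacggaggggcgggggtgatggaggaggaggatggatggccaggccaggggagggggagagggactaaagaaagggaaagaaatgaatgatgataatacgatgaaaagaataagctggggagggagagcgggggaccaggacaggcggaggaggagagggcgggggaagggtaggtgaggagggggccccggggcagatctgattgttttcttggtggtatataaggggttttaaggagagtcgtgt
Slc25a47 (chr12:108850879-108851128, plus strand): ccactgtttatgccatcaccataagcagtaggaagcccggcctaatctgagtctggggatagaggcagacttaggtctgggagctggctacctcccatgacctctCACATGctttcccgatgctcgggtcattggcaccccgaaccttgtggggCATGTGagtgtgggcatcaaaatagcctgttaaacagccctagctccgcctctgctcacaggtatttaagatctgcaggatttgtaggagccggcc
The Hprt, Rxrg and Neurog2 windows held no such word, and the Slc25a47 window held 2. Of the other 2 promoters that the rule took, Crabp1 held none and Eps8l1 held 1. Over the 11503 tested genes with a matched promoter, 57.1% held a CANNTG word, against 54.2% of 2622 genes that rose and 58.9% of 2677 that fell. Among genes changed at least 2-fold the shares were 66.2% of 293 that rose and 65.2% of 431 that fell. CAGCTG, the word that many proneural pairs prefer, was in 11.9% of all these promoters, in 14.3% of those of genes that rose at least 2-fold and in 14.4% of those that fell at least 2-fold. CAGATG or its reverse complement CATCTG was in 10.04%, 14.7% and 12.8%, and CAGGTG or its reverse complement CACCTG in 15.4%, 15% and 21.1%. CANNTG holds the other words, so these counts overlap. The median GC content of the promoter windows was 60% over all tested genes, 56.8% for those that rose at least 2-fold and 57.2% for those that fell at least 2-fold. These are descriptions of letters in a short window.

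Relatives, partners and inhibitors of Tcf4 changed in both directions. Of 7 genes of the E proteins and Id inhibitors list, 7 passed the filter on low counts, 3 rose and 1 fell (median log2 fold change 0.12). The other E proteins Tcf3 and Tcf12 rose. Tcf3 had 62.5, 64.2 and 59.8 CPM in WT and 83, 75.2 and 90.05 CPM in Het (log2 fold change 0.41 with SE 0.06, adjusted p = 6.3e-05), and the value of Tcf12 was 0.42, SE 0.05. Id2 rose, with 87.8, 118 and 113 CPM in WT and 142, 167 and 164 CPM in Het (log2 fold change 0.57 with SE 0.10, adjusted p = 0.0013). Id2 was lower in KO, with 40.1, 37.4 and 36.6 CPM in KO. Id4 fell, with 53.3, 49.4 and 42.1 CPM in WT and 26.1, 24.9 and 22.6 CPM in Het (log2 fold change -0.98 with SE 0.09, adjusted p = 1.7e-07). Id1 (-0.16, SE 0.23) and Id3 (-0.06, SE 0.11) were not called. The proneural and neuronal bHLH factors list held 25 genes, 18 of them tested, of which 9 rose and 5 fell (median log2 fold change 0.58). Neurog2, the proneural factor of cortical progenitors, was above WT in every Het library at 6.59, 5.34 and 4.82 CPM in WT and 29.3, 23.6 and 24.1 CPM in Het, and the KO libraries were higher again at 63.7, 59.9 and 61.9 CPM in KO. Nhlh1 and Nhlh2, factors of newly born neurons, rose (1.63, SE 0.41 and 1.24, SE 0.15). So did Neurod2 and Neurod6, of cortical excitatory neurons (0.59, SE 0.06 and 0.72, SE 0.10). Olig2 (-0.85, SE 0.08) fell. Nhlh1 was low and uneven in WT, with 3.21, 1.2 and 0.732 CPM in WT and 5.74, 4.4 and 5.78 CPM in Het.

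Notch signalling keeps progenitors undifferentiated, with Delta and Jagged ligands on one cell acting on Notch receptors of the next. In the Notch pathway list, 31 of 31 genes were tested, and 10 rose and 9 fell (median log2 fold change 0.03; 6 rose without the 3 libraries that stand apart). Among ligands, Jag1 (0.63, SE 0.15) rose and Dner (-0.54, SE 0.08) fell. Of the receptors Notch2 rose (0.50, SE 0.09), Notch3 fell (-0.51, SE 0.09) and Notch1 was not called (0.14, SE 0.09; called without Het replicate 2, adjusted p = 0.043). Mfng, a sugar transferase that modifies the receptors, had 9.17, 8.82 and 7.92 CPM in WT and 14.4, 13.6 and 15.6 CPM in Het (log2 fold change 0.75 with SE 0.10, adjusted p = 9.5e-06). The target genes Hey1 (-0.57, SE 0.08), Hey2 (-0.86, SE 0.23; not called without WT replicate 3, adjusted p = 0.053), Heyl (-0.49, SE 0.13) and the feedback inhibitor Nrarp (-0.56, SE 0.07) fell, and Hes1 (-0.19, SE 0.16) and Hes5 (-0.36, SE 0.16; called without WT replicate 1, adjusted p = 0.035; called without the 3 libraries that stand apart, -0.70, adjusted p = 0.028) were not called. Among 17 tested of 19 genes of the Sox factors list, 4 rose and 8 fell (median log2 fold change 0.05; 1 rose without the 3 libraries that stand apart). Sox9 (-0.58, SE 0.14), Sox1 (-0.48, SE 0.08) and Sox2 (-0.35, SE 0.06), of neural progenitors, and Sox10 (-1.22, SE 0.12), of the oligodendrocyte lineage, fell, while Sox4 (0.34, SE 0.08), of newborn neurons, and Sox5 (0.56, SE 0.09), of deep-layer neurons, rose.

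Genes of dividing cells rose more often than tested genes in all. Counts for the mitosis and cytokinesis list were 31 higher and 0 lower among 45 tested of 45 genes (median log2 fold change 0.43). Mki67, the proliferation marker, had 23.7, 16.8 and 14.7 CPM in WT and 29.8, 34.6 and 41.1 CPM in Het (log2 fold change 0.94 with SE 0.17, adjusted p = 0.0018). Kif14, a kinesin of cytokinesis, rose (0.97, SE 0.24). From the DNA replication list, 29 genes rose and 1 fell among 42 tested of 42 (median log2 fold change 0.40; 13 rose without the 3 libraries that stand apart). Tk1, the thymidine kinase of S phase (0.87, SE 0.14), the helicase subunit Mcm7 (0.71, SE 0.06) and the licensing factor Cdt1 (0.69, SE 0.11) rose. Rpa3, a subunit of the single-strand binding protein, was the 1 member that fell (-1.66, SE 0.15), and its transcripts share words with other genes. The cell cycle inhibitors did not move one way: Cdkn1c rose (0.78, SE 0.07) and Cdkn1a fell (-1.02, SE 0.13).

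Cortical progenitor genes split. Of 18 genes of the intermediate progenitor list, 17 passed the filter on low counts, 12 rose and 2 fell (median log2 fold change 0.57). Besides Eomes and Neurog2, Insm1, a zinc finger factor of progenitors that leave the ventricular surface, had 51.6, 52.2 and 42.7 CPM in WT and 90.8, 76.8 and 95.9 CPM in Het (log2 fold change 0.85 with SE 0.09, adjusted p = 1.2e-05). Gadd45g (0.83, SE 0.13) and Mfap4 (1.64, SE 0.36) rose. Penk, the enkephalin precursor of striatal neurons as well as a list member, fell (-2.89, SE 0.17). The radial glia list held 22 genes, 22 of them tested, of which 8 rose and 7 fell (median log2 fold change 0.01). Vim, the intermediate filament of radial glia, had 143, 133 and 137 CPM in WT and 239, 235 and 271 CPM in Het (log2 fold change 0.85 with SE 0.06, adjusted p = 1.5e-08). Emx2 (0.96, SE 0.12), Hopx (0.85, SE 0.17), Gli3 (0.50, SE 0.10) and Pax6 (0.39, SE 0.08) rose. Ednrb (-1.01, SE 0.09), Slc1a3 (-0.80, SE 0.05), Ptprz1 (-0.44, SE 0.06) and Fabp7 (-0.40, SE 0.06), which astrocytes also express, fell.

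Genes of projection neurons did not shift as 1 group. In the upper-layer neuron list, 20 of 20 genes were tested, and 6 rose and 7 fell (median log2 fold change -0.05; 3 rose without the 3 libraries that stand apart). Plxnd1, a semaphorin receptor, had 221, 263 and 246 CPM in WT and 118, 129 and 138 CPM in Het (log2 fold change -0.92 with SE 0.07, adjusted p = 1.6e-07). Lhx2 (0.70, SE 0.08) and Epha3 (0.57, SE 0.12) rose. Among 20 tested of 20 genes of the deep-layer neuron list, 6 rose and 5 fell (median log2 fold change -0.02). Foxp2, expressed in layer 6 and in the striatum, had 48.5, 42.5 and 43 CPM in WT and 16.3, 14.8 and 11.4 CPM in Het (log2 fold change -1.65 with SE 0.15, adjusted p = 6.9e-06). Bcl11b, of subcerebral and striatal neurons, fell (-0.54, SE 0.07). Fezf2, which specifies subcerebral neurons, had 68.8, 76.1 and 63.4 CPM in WT and 118, 105 and 133 CPM in Het (log2 fold change 0.78 with SE 0.08, adjusted p = 4.8e-06). Tbr1, of layer 6, had 221, 285 and 252 CPM in WT and 259, 253 and 228 CPM in Het and was not called (-0.03, SE 0.08; called without the 3 libraries that stand apart, -0.25, adjusted p = 0.042). Counts for the subplate neuron list were 2 higher and 8 lower among 15 tested of 15 genes (median log2 fold change -0.28; 1 rose without the 3 libraries that stand apart, 5 fell without the 3 libraries that stand apart). Cplx3, a complexin of subplate neurons, had 2.75, 4.28 and 4.04 CPM in WT and 1.11, 1.08 and 1.76 CPM in Het (log2 fold change -1.48 with SE 0.26, adjusted p = 0.00034), with 5.44, 4.61 and 7.9 CPM in KO, and Pappa2 rose (0.64, SE 0.14). From the Cajal-Retzius cell list, 9 genes rose and 1 fell among 16 tested of 16 (median log2 fold change 0.50; 0 fell without Het replicate 1 or 3 or WT replicate 3 or without the 3 libraries that stand apart, 2 fell without Het replicate 2). These early-born cells of the marginal zone are marked by Lhx1 (1.36, SE 0.25), Nhlh2 and Ebf3 (0.72, SE 0.14), which rose. Of 16 genes of the hippocampal neuron list, 16 passed the filter on low counts, 4 rose and 3 fell (median log2 fold change 0.20; 5 fell without WT replicate 1). Wfs1 (-0.95, SE 0.24) and Calb1 (-0.86, SE 0.11) fell. Neurod6 (0.72, SE 0.10), Lhx2 and Neurod2 (0.59, SE 0.06), which are also members of this list, rose. The cortical excitatory neuron list held 20 genes, 20 of them tested, of which 5 rose and 9 fell (median log2 fold change -0.11; 3 rose without the 3 libraries that stand apart). Camk2a, a synaptic kinase, had 252, 193 and 205 CPM in WT and 91.9, 110.0 and 98.6 CPM in Het (log2 fold change -1.11 with SE 0.12, adjusted p = 7.3e-05). Nrgn, a calmodulin-binding postsynaptic protein, had 354, 335 and 348 CPM in WT and 191, 196 and 193 CPM in Het (log2 fold change -0.84 with SE 0.08, adjusted p = 2.2e-06). The transcription factors Neurod2, Neurod6, Bhlhe22 (0.45, SE 0.05) and Emx1 (0.40, SE 0.08) rose.

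Of the 62 lists, that of striatal neurons had the largest median change. In the striatal neuron list, 22 of 22 genes were tested, and 0 rose and 22 fell (median log2 fold change -2.87). The summed level of the list was 1837 to 1943 CPM in WT and 937 to 1043 CPM in Het. The dopamine receptor Drd2, of indirect-pathway neurons, had 12.4, 13.5 and 10.9 CPM in WT and 0.697, 1.35 and 1.38 CPM in Het (log2 fold change -3.4 with SE 0.20, adjusted p = 1.4e-09). Tac1, the substance P precursor of direct-pathway neurons, had 16.9, 16.4 and 17.7 CPM in WT and 0.656, 2.2 and 0.795 CPM in Het (log2 fold change -3.77 with SE 0.37, adjusted p = 5.1e-05). Genes of both output pathways were therefore lower. The other dopamine receptor of the list, Drd1, fell less (-0.63, SE 0.23, adjusted p = 0.043), and its values in the alternative fits are not given here. The striatal list was fixed with earlier results in view, and in a bulk sample fewer cells of a type and less RNA per cell cannot be told apart. The libraries are labelled dorsal telencephalon, whereas the striatum is ventral. How much ventral tissue each library held was not tested and cannot be told apart from these either. Among 27 tested of 27 genes of the interneuron list, 4 rose and 15 fell (median log2 fold change -0.26). Sp8 (-1.33, SE 0.17), a factor of caudally and dorsally derived interneurons, Slc32a1 (-1.36, SE 0.09), the vesicular GABA transporter, and Dlx5 (-1.23, SE 0.15) fell. Nkx2-1, which specifies medial ganglionic eminence cells, had 11.3, 6.01 and 8.35 CPM in WT and 0.779, 1.01 and 0.83 CPM in Het (log2 fold change -3.28 with SE 0.24, adjusted p = 2.1e-08). Cxcr4, the chemokine receptor of migrating interneurons, had 20.8, 19.5 and 15.3 CPM in WT and 51.7, 39 and 35.6 CPM in Het (log2 fold change 1.18 with SE 0.15, adjusted p = 0.00011). Lhx6 (0.35, SE 0.06), of medially derived cortical interneurons, rose. Counts for the retinoid pathway list were 1 higher and 11 lower among 19 tested of 24 genes (median log2 fold change -0.48; 0 rose without Het replicate 3 or WT replicate 2 or 3 or without the 3 libraries that stand apart). Besides Rxrg and Crabp1, Stra6, the retinol uptake receptor, had 8.04, 8.46 and 7.36 CPM in WT and 2.5, 3.11 and 2.84 CPM in Het (log2 fold change -1.49 with SE 0.15, adjusted p = 6.1e-07). Cyp26b1, which breaks down retinoic acid, had 53.8, 59.5 and 56.7 CPM in WT and 26.9, 29.4 and 26.2 CPM in Het (log2 fold change -1.04 with SE 0.10, adjusted p = 1.2e-06).

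Most genes of the glial and microglial lists fell. From the astrocyte list, 0 genes rose and 21 fell among 23 tested of 24 (median log2 fold change -0.84). Aqp4, the water channel of astrocyte endfeet, had 36.9, 38.1 and 36 CPM in WT and 8.03, 11.8 and 8.65 CPM in Het (log2 fold change -1.96 with SE 0.14, adjusted p = 3.0e-07). Acsbg1 (-1.25, SE 0.08) and Slc4a4 (-1.45, SE 0.09) fell. Gfap (-0.21, SE 0.43) and Id3 were the 2 members not called. Of 22 genes of the oligodendrocyte lineage list, 20 passed the filter on low counts, 1 rose and 17 fell (median log2 fold change -1.1; 0 rose without Het replicate 3 or WT replicate 2 or 3). Gpr17, of committed precursors, had 31.1, 29 and 33.4 CPM in WT and 11, 9.61 and 7.82 CPM in Het (log2 fold change -1.72 with SE 0.16, adjusted p = 2.6e-06). Mog, a late myelin gene, was the 1 member that rose (0.45, SE 0.14; not called without Het replicate 3 or WT replicate 2 or 3, adjusted p 0.051 to 0.096). The microglia and macrophage list held 20 genes, 20 of them tested, of which 0 rose and 15 fell (median log2 fold change -0.83). Cx3cr1, the fractalkine receptor of microglia, had 31.7, 28.1 and 28.2 CPM in WT and 13.1, 11.6 and 12 CPM in Het (log2 fold change -1.26 with SE 0.09, adjusted p = 7.9e-09). Fcrls (-1.21, SE 0.15) and Laptm5 (-0.99, SE 0.10) fell. C1qb (0.02, SE 0.13) was not called, while C1qa fell (-1.21, SE 0.10). The summed level of the astrocyte list was 2656 to 2735 CPM in WT and 1480.0 to 1609 CPM in Het. That of the oligodendrocyte list was 796 to 835 CPM in WT and 520.1 to 534 CPM in Het, and that of the microglia list was 188 to 209 CPM in WT and 108 to 109.7 CPM in Het.

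Endothelial genes rose more often than tested genes in all. In the endothelial cell list, 21 of 21 genes were tested, and 14 rose and 1 fell (median log2 fold change 0.39; 5 rose without the 3 libraries that stand apart). Emcn (0.87, SE 0.22), Tek (0.42, SE 0.11) and Pecam1 (0.39, SE 0.08) rose. Slco1a4 was the 1 member that fell (-2.91, SE 0.48), at a low mean of 0.553 CPM over the 9 libraries. Among 14 tested of 14 genes of the pericyte and smooth muscle list, 6 rose and 2 fell (median log2 fold change -0.00). Rgs5, a signalling regulator of pericytes, had 44.3, 38.2 and 46.7 CPM in WT and 106, 94.5 and 95.8 CPM in Het (log2 fold change 1.2 with SE 0.08, adjusted p = 6.6e-09). Kcnj8 (0.65, SE 0.12) and Abcc9 (0.54, SE 0.08), the subunits of their potassium channel, rose, while Pdgfrb (-0.15, SE 0.07) was not called. The 2 members that fell were Notch3 (-0.51, SE 0.09) and Tagln (-0.98, SE 0.23). Counts for the meninges and fibroblast list were 4 higher and 2 lower among 16 tested of 20 genes (median log2 fold change 0.16; 2 rose without WT replicate 3 or without the 3 libraries that stand apart, 1 fell without Het replicate 1 or WT replicate 1 or without the 3 libraries that stand apart). Dcn, a matrix proteoglycan, had 1.81, 0.445 and 0.689 CPM in WT and 3.44, 3.86 and 3.25 CPM in Het (log2 fold change 1.85 with SE 0.33, adjusted p = 0.00049). Col1a1 (0.61, SE 0.55) was not called. From the choroid plexus list, 2 genes rose and 2 fell among 10 tested of 15 (median log2 fold change -0.13; 1 rose without WT replicate 2, 0 fell without Het replicate 1 or without the 3 libraries that stand apart, 1 fell without Het replicate 2 or 3 or WT replicate 1 or 3), and the marker Ttr, at 0.723, 1.02 and 0.043 CPM in WT and 0.164, 7.07 and 15.7 CPM in Het, was uneven among the Het libraries and was not called (log2 fold change 3.7 with SE 1.54, adjusted p = 0.097; called without Het replicate 1, adjusted p = 0.024). Of 17 genes of the diencephalon and thalamus list, 14 passed the filter on low counts, 2 rose and 4 fell (median log2 fold change -0.31; 1 rose without Het replicate 1 or WT replicate 3, 4 rose without WT replicate 1 or without the 3 libraries that stand apart, 2 fell without Het replicate 1 or without the 3 libraries that stand apart). Tcf7l2, a thalamic Wnt effector that shares an alias with Tcf4, had 12.9, 4.01 and 5.34 CPM in WT and 2.66, 3.04 and 3.56 CPM in Het (log2 fold change -1.25 with SE 0.42, adjusted p = 0.042; not called without Het replicate 1, 2 or 3 or KO replicate 1, 2 or 3, adjusted p 0.062 to 0.13), with WT replicate 1 well above the other libraries. In an edgeR fit of only the Het and WT libraries Tcf7l2 was not called either (adjusted p = 0.1). The red blood cell list held 18 genes, 11 of them tested, of which 3 rose and 4 fell (median log2 fold change 0.09; 2 fell without Het replicate 2 or 3 or WT replicate 2 or 3, 1 fell without the 3 libraries that stand apart). The globin genes Hba-a1 and Hba-a2 are near-identical copies that were called in opposite directions. Hba-a2 rose (3.98, SE 0.35) and Hba-a1 fell. Reads can be split between such copies, so neither change can be assigned to its gene alone. The summed level of the list was 725 to 855 CPM in WT and 710 to 797 CPM in Het. Values of Hba-a1, Slco1a4 and Tagln in the alternative fits are not given here.

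**Figure D4:**
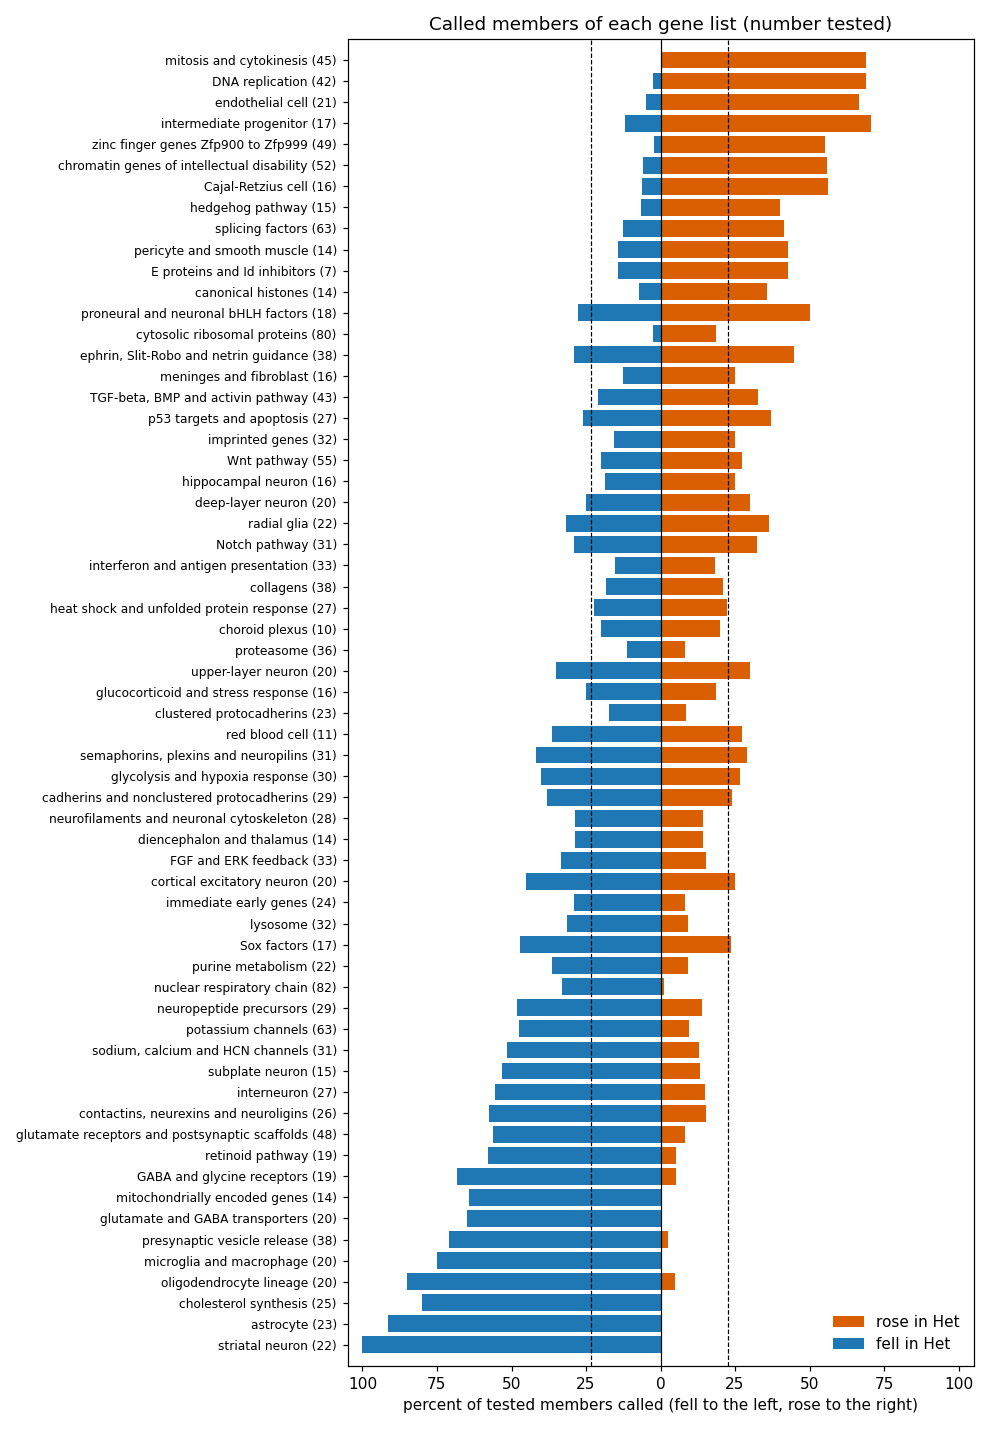
Share of tested members that rose (orange, to the right) and fell (blue, to the left) in Het for each of the 62 gene lists, as a percentage of tested members, with the number tested after each name; dashed lines mark the shares over all 15271 tested genes, 22.5% and 23.4%. Of the 62 lists the striatal, astrocyte, oligodendrocyte, cholesterol synthesis and microglia lists extend farthest to the left and the intermediate progenitor, DNA replication and mitosis lists farthest to the right.

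Genes of synapses and membrane excitability were more often lower than tested genes in all. In the presynaptic vesicle release list, 38 of 38 genes were tested, and 1 rose and 27 fell (median log2 fold change -0.37; 2 rose without Het replicate 3 or WT replicate 1). Dnm1, the dynamin of vesicle retrieval, had 285, 241 and 261 CPM in WT and 149, 179.7 and 164 CPM in Het (log2 fold change -0.68 with SE 0.07, adjusted p = 3.4e-06). Rims3, of the active zone, had 193, 194 and 199.8 CPM in WT and 117, 115 and 113 CPM in Het (log2 fold change -0.77 with SE 0.05, adjusted p = 3.0e-09). Sv2c, a vesicle protein of basal ganglia neurons, fell (-1.11, SE 0.20). Syt1 (-0.51, SE 0.06), the main calcium sensor, and Snap25 (-0.25, SE 0.06) fell less. Among 48 tested of 49 genes of the glutamate receptors and postsynaptic scaffolds list, 4 rose and 27 fell (median log2 fold change -0.26). Grm4, a presynaptic metabotropic receptor, had 22.2, 16.9 and 20.2 CPM in WT and 5.12, 7.99 and 8.06 CPM in Het (log2 fold change -1.48 with SE 0.15, adjusted p = 1.4e-06). Dlgap3, a scaffold rich in the striatum, had 231, 216 and 226 CPM in WT and 112, 121 and 118 CPM in Het (log2 fold change -0.93 with SE 0.06, adjusted p = 1.4e-09). Grin2d fell (-1.0, SE 0.16). Counts for the GABA and glycine receptors list were 1 higher and 13 lower among 19 tested of 26 genes (median log2 fold change -0.32). Gabrg1 (-0.90, SE 0.14) and Gabrg3 (-0.79, SE 0.11) fell, and the fetal glycine receptor subunit Glra2 rose (0.45, SE 0.06). From the glutamate and GABA transporters list, 0 genes rose and 13 fell among 20 tested of 20 (median log2 fold change -0.67). Slc6a11, a GABA transporter of astrocytes, had 257, 252 and 244 CPM in WT and 104, 108 and 112 CPM in Het (log2 fold change -1.21 with SE 0.06, adjusted p = 1.2e-10). Abat, which degrades GABA, had 144, 120.3 and 137 CPM in WT and 51.8, 55.9 and 52.1 CPM in Het (log2 fold change -1.33 with SE 0.07, adjusted p = 1.5e-10). Slc38a3, which exports glutamine, fell (-0.77, SE 0.07).

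Of 75 genes of the potassium channels list, 63 passed the filter on low counts, 6 rose and 30 fell (median log2 fold change -0.28; 3 rose without WT replicate 3 or without the 3 libraries that stand apart). Kcnn1, a calcium-activated channel, had 36.2, 36.3 and 41.7 CPM in WT and 12.8, 13.3 and 17.3 CPM in Het (log2 fold change -1.4 with SE 0.11, adjusted p = 5.8e-08). Kcnj4, an inward rectifier, had 16.9, 21.3 and 21.3 CPM in WT and 8.89, 9.98 and 7.82 CPM in Het (log2 fold change -1.16 with SE 0.12, adjusted p = 1.1e-06). Kcnh1 fell (-1.64, SE 0.15). The sodium, calcium and HCN channels list held 36 genes, 31 of them tested, of which 4 rose and 16 fell (median log2 fold change -0.31). Cacna1b, the pore of the N-type calcium channel, had 220.4, 212 and 219.7 CPM in WT and 78.2, 99.98 and 106 CPM in Het (log2 fold change -1.2 with SE 0.09, adjusted p = 4.7e-07). Cacna2d3 fell (-0.86, SE 0.07), while Cacna1e rose (0.61, SE 0.11). In the neurofilaments and neuronal cytoskeleton list, 28 of 28 genes were tested, and 4 rose and 8 fell (median log2 fold change -0.10; 2 rose without the 3 libraries that stand apart, 5 fell without the 3 libraries that stand apart). Map1a, the microtubule protein of mature neurons, had 369.8, 309 and 342 CPM in WT and 162, 218 and 197 CPM in Het (log2 fold change -0.83 with SE 0.10, adjusted p = 5.0e-05) and the axonal motor Kif1a fell (-0.53, SE 0.06). 

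Adhesion and axon guidance genes moved in both directions. Among 26 tested of 26 genes of the contactins, neurexins and neuroligins list, 4 rose and 15 fell (median log2 fold change -0.29). Cntn1, an axonal adhesion molecule, had 318, 306 and 308 CPM in WT and 160.4, 168 and 136 CPM in Het (log2 fold change -1.0 with SE 0.07, adjusted p = 4.0e-09). Cntn4 fell (-1.37, SE 0.12), while Cntn2 rose, with 533, 553 and 528 CPM in WT and 698, 714 and 792 CPM in Het (log2 fold change 0.45 with SE 0.06, adjusted p = 7.6e-06), and was lower in KO, with 188, 196 and 184 CPM in KO. Counts for the cadherins and nonclustered protocadherins list were 7 higher and 11 lower among 29 tested of 35 genes (median log2 fold change -0.15; 1 rose without the 3 libraries that stand apart). Pcdh10 had 230.3, 233 and 251 CPM in WT and 115, 127 and 109 CPM in Het (log2 fold change -1.02 with SE 0.06, adjusted p = 1.1e-09). Pcdh1 fell (-0.78, SE 0.05), while Pcdh18 rose (0.30, SE 0.08). From the clustered protocadherins list, 2 genes rose and 4 fell among 23 tested of 24 (median log2 fold change -0.11; 2 fell without Het replicate 1 or WT replicate 2 or without the 3 libraries that stand apart), and these genes share constant exons or similar sequence, so their values are uncertain. Of 31 genes of the semaphorins, plexins and neuropilins list, 31 passed the filter on low counts, 9 rose and 13 fell (median log2 fold change -0.16; 8 fell without Het replicate 2, 5 fell without the 3 libraries that stand apart). Nrp1, the semaphorin and VEGF co-receptor, had 149.6, 91 and 76.3 CPM in WT and 281, 241 and 272 CPM in Het (log2 fold change 1.33 with SE 0.25, adjusted p = 0.0057). Sema3c rose (0.80, SE 0.14). The ephrin, Slit-Robo and netrin guidance list held 39 genes, 38 of them tested, of which 17 rose and 11 fell (median log2 fold change 0.10; 11 rose without the 3 libraries that stand apart). Besides Ntn1, Epha8 fell (-1.24, SE 0.08), whereas the netrin receptor Dcc had 46.1, 32.4 and 26.3 CPM in WT and 62.1, 61.9 and 73 CPM in Het (log2 fold change 0.91 with SE 0.18, adjusted p = 0.0047). Draxin, a guidance ligand that binds Dcc, had 131, 98.8 and 114 CPM in WT and 207, 229 and 251 CPM in Het (log2 fold change 1.0 with SE 0.10, adjusted p = 1.2e-05). Ntn1 and its receptor Dcc thus changed in opposite directions. Of the Unc5 family of netrin receptors, Unc5c fell (-0.27, SE 0.09) and Unc5d rose (0.32, SE 0.08). The values of these Unc5 genes in the alternative fits are not given here. Slit3 (0.93, SE 0.23) and Robo1 (0.43, SE 0.06) rose.

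Among secreted signals, Wnt genes rose and fell at rates near those of all genes. In the Wnt pathway list, 55 of 63 genes were tested, and 15 rose and 11 fell (median log2 fold change 0.08; 7 fell without Het replicate 2, 6 fell without the 3 libraries that stand apart). Ror2, a receptor of noncanonical Wnt signals, had 3.52, 2.36 and 1.76 CPM in WT and 7.46, 7.88 and 6.95 CPM in Het (log2 fold change 1.55 with SE 0.19, adjusted p = 4.7e-06). The receptor Fzd1 (1.08, SE 0.10), the enhancer of Wnt signals Rspo3 (1.4, SE 0.11) and the intracellular inhibitor Nkd2 (0.95, SE 0.08) rose. Tcf7l1, a repressing effector, fell (-0.54, SE 0.16; not called without WT replicate 3, adjusted p = 0.053). Axin2, a common target gene, rose (0.41, SE 0.10). Among 43 tested of 48 genes of the TGF-beta, BMP and activin pathway list, 14 rose and 9 fell (median log2 fold change 0.03; 9 rose without WT replicate 3, 6 rose without the 3 libraries that stand apart). The activin antagonist Fst rose, with 6.05, 6.77 and 8.44 CPM in WT and 13, 11.9 and 10.9 CPM in Het (log2 fold change 0.75 with SE 0.14, adjusted p = 0.00044). Ltbp1 rose (1.1, SE 0.16). Counts for the FGF and ERK feedback list were 5 higher and 11 lower among 33 tested of 46 genes (median log2 fold change -0.11; 3 rose without Het replicate 1 or WT replicate 2 or 3, 2 rose without the 3 libraries that stand apart). The receptor Fgfr1 had 81.1, 70.3 and 51.4 CPM in WT and 133, 128 and 165 CPM in Het (log2 fold change 1.07 with SE 0.18, adjusted p = 0.0024). Dusp4, a MAP kinase phosphatase, rose (0.86, SE 0.11), while Etv4, an ERK target, fell (-0.57, SE 0.09). From the hedgehog pathway list, 6 genes rose and 1 fell among 15 tested of 15 (median log2 fold change 0.24; 3 rose without WT replicate 3, 2 rose without the 3 libraries that stand apart, 2 fell without Het replicate 1 or 2 or KO replicate 1 or 3). The co-receptor Cdon had 16.4, 19.1 and 15.1 CPM in WT and 40.3, 34.9 and 40.3 CPM in Het (log2 fold change 1.19 with SE 0.10, adjusted p = 1.2e-07). Ptch1, receptor and target gene of the pathway, fell (-0.87, SE 0.09). Of 30 genes of the neuropeptide precursors list, 29 passed the filter on low counts, 4 rose and 14 fell (median log2 fold change -0.42; 2 rose without Het replicate 1 or 2 or WT replicate 3, 1 rose without the 3 libraries that stand apart, 7 fell without the 3 libraries that stand apart). Vgf, a secreted neuronal protein, had 136, 111 and 124 CPM in WT and 51.2, 67.6 and 63.3 CPM in Het (log2 fold change -1.02 with SE 0.14, adjusted p = 0.00038). Nxph3, a neurexin ligand, rose (0.73, SE 0.06).

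Counts of early-response genes depended on single libraries. The immediate early genes list held 24 genes, 24 of them tested, of which 2 rose and 7 fell (median log2 fold change -0.46; 1 rose without Het replicate 1 or 3, 4 fell without Het replicate 2, 12 fell without WT replicate 1, 2 or 3, 15 fell without the 3 libraries that stand apart). Egr1, an activity-induced zinc finger factor, had 33.4, 277 and 31.4 CPM in WT and 6.97, 7.92 and 12.8 CPM in Het (log2 fold change -3.62 with SE 1.02, adjusted p = 0.028; not called without Het replicate 1, 2 or 3, adjusted p 0.068 to 0.088), with WT replicate 2 far above the other WT libraries. In an edgeR fit of only the Het and WT libraries Egr1 was not called either (adjusted p = 0.085). Ier5 rose (1.11, SE 0.06). In the glucocorticoid and stress response list, 16 of 16 genes were tested, and 3 rose and 4 fell (median log2 fold change -0.04; 1 rose without the 3 libraries that stand apart). Klf9, a hormone-induced factor, fell (-0.92, SE 0.09). Among 27 tested of 27 genes of the heat shock and unfolded protein response list, 6 rose and 6 fell (median log2 fold change -0.00; 3 fell without Het replicate 1 or without the 3 libraries that stand apart). Atf4, the factor of the integrated stress response, had 72.9, 72.3 and 75.4 CPM in WT and 179, 117 and 119 CPM in Het (log2 fold change 0.91 with SE 0.28, adjusted p = 0.04; not called without Het replicate 1, 2 or 3 or KO replicate 2 or WT replicate 1, 2 or 3, adjusted p 0.054 to 0.11). Herpud1 rose (0.71, SE 0.11), while Xbp1 fell (-0.31, SE 0.06). Counts for the p53 targets and apoptosis list were 10 higher and 7 lower among 27 tested of 27 genes (median log2 fold change -0.00; 3 rose without the 3 libraries that stand apart, 4 fell without WT replicate 3 or without the 3 libraries that stand apart). Trp53inp1 rose (1.04, SE 0.10) and Bbc3, a death-promoting Bcl2 relative, fell (-0.61, SE 0.08).

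Genes of cholesterol synthesis fell together. From the cholesterol synthesis list, 0 genes rose and 20 fell among 25 tested of 25 (median log2 fold change -0.52). Hsd17b7 had 33, 36.3 and 31.7 CPM in WT and 14.1, 15.9 and 16.3 CPM in Het (log2 fold change -1.12 with SE 0.10, adjusted p = 1.2e-07). Idi1 (-0.94, SE 0.06), Insig1, which senses sterols (-0.81, SE 0.06), and Dhcr7, the last enzyme of one branch (-0.73, SE 0.06), fell. For Insig1 the KO over WT value was -0.19, SE 0.06, and the KO over Het value was 0.62, SE 0.06, adjusted p = 1.5e-06. Of 15 genes of the mitochondrially encoded genes list, 14 passed the filter on low counts, 0 rose and 9 fell (median log2 fold change -0.49). mt-Nd5 had 1020.0, 801 and 924 CPM in WT and 654, 531 and 623 CPM in Het (log2 fold change -0.60 with SE 0.09, adjusted p = 0.00023). The nuclear respiratory chain list held 92 genes, 82 of them tested, of which 1 rose and 27 fell (median log2 fold change -0.12; 0 rose without Het replicate 2 or WT replicate 1 or without the 3 libraries that stand apart, 3 rose without Het replicate 3 or KO replicate 3 or WT replicate 3, 2 rose without WT replicate 2, 10 fell without Het replicate 3 or WT replicate 3 or without the 3 libraries that stand apart). Uqcrq, of complex III, (-0.48, SE 0.06) and Ndufa5, of complex I, (-0.39, SE 0.06) fell. In the glycolysis and hypoxia response list, 30 of 31 genes were tested, and 8 rose and 12 fell (median log2 fold change -0.12). Eno2, the neuronal enolase, had 156, 147 and 161 CPM in WT and 66, 73.8 and 65.5 CPM in Het (log2 fold change -1.18 with SE 0.06, adjusted p = 4.5e-10). Slc2a3, the neuronal glucose transporter, fell (-0.58, SE 0.07), whereas Eno1 (0.44, SE 0.07), Hk2 (0.60, SE 0.12) and Vegfa (0.62, SE 0.09) rose. Among 22 tested of 25 genes of the purine metabolism list, 2 rose and 8 fell (median log2 fold change -0.13; 1 rose without the 3 libraries that stand apart, 4 fell without the 3 libraries that stand apart). Next to Hprt, Gda, which degrades guanine, fell (-0.96, SE 0.08), and Aprt, the other base salvage enzyme, rose (0.35, SE 0.07). Counts for the lysosome list were 3 higher and 10 lower among 32 tested of 32 genes (median log2 fold change -0.12; 1 rose without Het replicate 1 or WT replicate 3, 4 fell without the 3 libraries that stand apart). Ctsd, a lysosomal protease, fell (-0.44, SE 0.05).

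Chromatin and RNA-processing genes were more often higher, by small amounts. From the chromatin genes of intellectual disability list, 29 genes rose and 3 fell among 52 tested of 52 (median log2 fold change 0.21; 17 rose without the 3 libraries that stand apart). Chd7, a remodeller, had 23.8, 20.9 and 19 CPM in WT and 30.3, 28.4 and 35.5 CPM in Het (log2 fold change 0.57 with SE 0.10, adjusted p = 0.00017), and the acetyltransferase gene Kat6b had 73.2, 69.3 and 66.6 CPM in WT and 101, 105 and 117 CPM in Het (log2 fold change 0.63 with SE 0.06, adjusted p = 4.4e-07). The DNA methyltransferase Dnmt3a fell, with 194, 177 and 175 CPM in WT and 143, 130.2 and 130.2 CPM in Het (log2 fold change -0.44 with SE 0.06, adjusted p = 9.1e-06). Of 65 genes of the splicing factors list, 63 passed the filter on low counts, 26 rose and 8 fell (median log2 fold change 0.10; 14 rose without the 3 libraries that stand apart). With smooth trends on gene length and GC content removed, 21 genes of the splicing list rose and 13 fell (median log2 fold change 0.05). For the chromatin list these counts were 28 and 2 (median log2 fold change 0.19). Srsf6 rose (0.42, SE 0.07), and the neuronal factors Nova1 (-0.82, SE 0.15) and Rbfox3 (-0.43, SE 0.05) fell. The proteasome list held 39 genes, 36 of them tested, of which 3 rose and 4 fell (median log2 fold change -0.00; 6 rose without Het replicate 3, 0 rose without the 3 libraries that stand apart, 1 fell without Het replicate 3 or WT replicate 3 or without the 3 libraries that stand apart, 2 fell without WT replicate 2). In the imprinted genes list, 32 of 37 genes were tested, and 8 rose and 5 fell (median log2 fold change -0.02; 3 fell without Het replicate 3 or WT replicate 1, 8 fell without WT replicate 2, 2 fell without the 3 libraries that stand apart). Nap1l5 fell (-0.79, SE 0.13). Among 38 tested of 44 genes of the collagens list, 8 rose and 7 fell (median log2 fold change -0.06; 5 rose without WT replicate 3). Col12a1 rose (1.44, SE 0.12) and Col25a1, a transmembrane collagen of neurons, fell (-1.86, SE 0.18).

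Families of near-identical genes held several of the steepest values, and these are uncertain because reads can be split between copies. Counts for the cytosolic ribosomal proteins list were 15 higher and 2 lower among 80 tested of 85 genes (median log2 fold change 0.08; 23 rose without WT replicate 2, 9 rose without the 3 libraries that stand apart, 1 fell without Het replicate 1 or 3 or KO replicate 2 or WT replicate 2 or without the 3 libraries that stand apart, 0 fell without WT replicate 3), and the members with the largest folds were Rpl26 and Rps18. Rpl26 had 50.9, 59.6 and 56.8 CPM in WT and 361, 414 and 356 CPM in Het (log2 fold change 2.76 with SE 0.08, adjusted p = 1.0e-12). Rps18 had 81.7, 101 and 105 CPM in WT and 521, 543 and 488 CPM in Het (log2 fold change 2.43 with SE 0.09, adjusted p = 1.5e-10). Of their 31-base words, 27.1% and 27.9% occur in other genes. Most ribosomal protein genes were not called. From the zinc finger genes Zfp900 to Zfp999 list, 27 genes rose and 1 fell among 49 tested of 66 (median log2 fold change 0.47; 16 rose without the 3 libraries that stand apart, 2 fell without Het replicate 1 or WT replicate 1 or 3 or without the 3 libraries that stand apart). Zfp950 rose (1.33, SE 0.13), with 5.53% of its words shared. Of 64 genes of the canonical histones list, 14 passed the filter on low counts, 5 rose and 1 fell (median log2 fold change 0.40). The interferon and antigen presentation list held 60 genes, 33 of them tested, of which 6 rose and 5 fell (median log2 fold change 0.11; 3 fell without Het replicate 1 or WT replicate 1 or without the 3 libraries that stand apart). The class I genes H2-K1 (-1.6, SE 0.25) and H2-D1 (-1.24, SE 0.15) fell and H2-T22 rose (1.62, SE 0.21), with 22.8%, 26.9% and 67.4% of words shared. Processed pseudogenes were lower in 46 of 175 tested (26.3%), 45 of these at least 2-fold, and higher in 15, 12 of these at least 2-fold. Among the genes named above, at least 5% of the words of Hsp90aa1, Notch3, Notch1, Nrarp, Hes5, Sox4, Sox5, Mcm7, Rpa3, Cdkn1c, Cdkn1a, Penk, Emx2, Hopx, Slc32a1, Slco1a4, Tagln, Hba-a2, Grin2d, Rspo3, Idi1, mt-Nd5, Eno1, Ctsd, Rpl26, Rps18, Zfp950, H2-K1, H2-D1 and H2-T22 occur in other genes. An exon of another gene lies on the opposite strand of Six3, Eomes, Eps8l1, Slco2a1, Cbx7, Pcsk1n, Id4, Dner, Notch3, Notch1, Nrarp, Hes5, Sox4, Sox5, Tk1, Mcm7, Cdkn1c, Cdkn1a, Mfap4, Penk, Emx2, Hopx, Gli3, Ebf3, Slc32a1, Gpr17, Cx3cr1, Abcc9, Tagln, Grin2d, Kcnn1, Map1a, Pcdh10, Unc5c, Rspo3, Tcf7l1, Axin2, Fst, Fgfr1, Idi1, mt-Nd5, Dnmt3a, Rps18 and H2-T22, and no source used here says whether the counting used strand, so these values are uncertain.

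Called genes were spread over the genome and over gene properties. On each autosome 19.3% to 27.5% of tested genes rose and 19.2% to 28.9% fell. On chromosome X 15.2% of 545 rose and 27.0% fell. Genes were also put in 5 bins of equal size. In the lowest bin by GC content 28.7% rose and 17.4% fell, and in the highest 15.2% rose and 34.0% fell. By length of the gene model the shares that rose and fell were 18.3% and 19.3% in the shortest bin and 25.7% and 24.9% in the longest. With smooth trends on length and GC content removed, 3534 genes rose and 3635 fell. In the bin of lowest level 20.7% were called and changed at least 2-fold, against 1.21% in that of highest level.

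The KO libraries share the WT libraries of this comparison, so the values of both labels are set side by side with no test of their likeness. In KO over WT, 52.8% of tested genes were called, and in KO over Het 16.7%. Eomes was at 81.9, 82 and 96 CPM in KO, Insm1 at 117, 115 and 128 CPM in KO, Apoe at 136, 114 and 134 CPM in KO, Drd2 at 0.767, 0.838 and 1.06 CPM in KO, Ebf1 at 3.45, 3.08 and 2.52 CPM in KO and Aqp4 at 7.46, 4.95 and 6.64 CPM in KO, beside the Het values above. Eomes and Insm1 were higher in KO than in Het by 0.54, SE 0.12, adjusted p = 0.015 and 0.45, SE 0.09, adjusted p = 0.0044, and Apoe (-0.01, SE 0.10, adjusted p = 0.96) and Ebf1 (0.39, SE 0.17, adjusted p = 0.13) were not called between KO and Het. Genes in which Het lay outside both other labels, or in which Het and KO lay on opposite sides of WT, include Hprt, Dsc3, Id2, Cntn2 and Fst. Fst was at 1.05, 0.914 and 1.26 CPM in KO, with a KO over Het value of -3.46, SE 0.17, adjusted p = 1.3e-09. These 5 were chosen after their values were seen.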

How the data were processed

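RNA-seq libraries of newborn dorsal telencephalon were made from total RNA with a NEBNext Ultra kit, per the labels' protocols. Tools in the submitters' processing notes, whose roles they do not state here, are HTSeq 0.6.1, TopHat2 2.0.9, DESeq 1.10.1 and Bowtie2 2.0.6, with the build mm10. The authors deposited whole-number counts per gene and FPKM values per gene for 9 libraries. No source used here says whether the counting used strand or what was done with reads that map to several places. Such reads can be lost or moved between similar genes.

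The 41128 gene IDs were matched to GENCODE M21 (40254 matched), and promoters came from RefSeq on GRCm38.p6. Genes kept by edgeR's filterByExpr (minimum count 10, minimum total 15) numbered 15271 and held 99.95% of counts. All 9 libraries were fitted with edgeR 4.0.16 (TMM factors, quasi-likelihood test, genotype as the only term, 6 residual degrees of freedom), and p-values were Benjamini-Hochberg adjusted over all tested genes. The threshold was 0.05. Data simulated for Het versus WT over 15271 genes, with 9 false calls, recovered 68.7% of the 67 genes set to 1.5-fold, 88.1% of the 67 at 2-fold and 98.5% of the 66 at 4-fold. Only these genes were changed there, a far smaller share than the 45.9% called in the data. The adjustment of p-values depends on that share, so the recovery and false calls need not hold for the data. Counts of no pair of libraries agreed within sampling noise.

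Named genes were Tcf4, Tcf7l2, the 15 called genes with the largest log2 fold change in each direction (mean log2 CPM at least 1, no overlap between Het and WT, under 5% of 31-base words shared, no unnamed models), the 5 in each direction at a mean of at least 200 CPM, and up to 4 called members per list and direction (mean log2 CPM at least 1, no overlap). The rule took 373 genes, and those printed were picked from them after their values were seen. Members not called could be named with values. These called genes fall outside the rule and were chosen for their known roles or their folds after their values were seen: Isl1, Six3, Nkx2-1, Ankrd63, Egr4, Rec8, Gdf9, Cdh15, Cbx7, Dmrt3, Heyl, Sox2, Insm1, Gadd45g, Pax6, Ptprz1, Fabp7, Bcl11b, Ebf3, Dlx5, Cyp26b1, Acsbg1, Laptm5, Tek, Pecam1, Abcc9, Dnm1, Rims3, Syt1, Snap25, Dlgap3, Slc38a3, Robo1, Axin2, Insig1, Dhcr7 and Eno1. Drd1, Slco1a4, Tagln, Unc5c and Unc5d were also named outside the rule after their values were seen. The comparison, the lists and the rule were chosen with earlier results of these data known. The tests were repeated with DESeq2 1.42.0, limma 3.58.1 on log2(FPKM + 1), changed scaling or filters, fewer libraries, a replicate block, length and GC trends (mgcv 1.9.3), gene subsets and a fold minimum. The 2 fits for the libraries that stand apart were added after seeing the data. Some items are not reported here.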

Additional observations from a re-analysis of the deposited data

How the results depend on the processing

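Under the scaling, filter, tool, sample and gene-subset alternatives, the genes that rose numbered 2589 to 4105 and those that fell 2430 to 3635, against 3434 and 3577, each within 1.5 times. The share of calls on the higher side was 55.5% with upper-quartile scaling and 57.8% with limma on log2(FPKM + 1), and 49.0% in the edgeR test of the report. With a minimum change of 1.5-fold, 1147 genes rose and 1371 fell, which the added criterion sets. With the 3 libraries that stand apart left out, 1898 rose and 2210 fell, with 1 WT library assumed to vary like the others. Leaving out each library in turn gave 2760 to 3440 genes that rose and 3052 to 3562 that fell, lowest without WT replicate 3. With the replicate block 3259 rose and 3382 fell, but the numbers share no stated litter or day, and same-numbered Het and WT deviations correlated over genes at 0.0844, 0.0707 and -0.106. Of 124 list counts, 63 stayed within 1.5 times in all 20 alternatives run on them. Drd1, Hba-a1, Slco1a4, Tagln, Unc5c and Unc5d are left aside here, as their values in the alternatives are not given. No other called gene named in the report changed direction in the 20 alternatives run on single genes. Genes that were not called did. With the 3 libraries left out, Tcf4 was -0.0868 and Id3 0.0229, and C1qb was -0.0244 with a term for the 3. Tbr1 was 0.000902 with upper-quartile scaling and 0.0217 with limma. Over the fits that left out 1 library, Id1 ranged from -0.36 to 0.011, Id3 from -0.168 to 0.0137, Tbr1 from -0.12 to 0.0623, Gfap from -0.616 to 0.0914 and C1qb from -0.0746 to 0.0884. Notch1 was called with length and GC trends removed (adjusted p = 0.042), Ttr with DESeq2 (0.022) and Col1a1 with the replicate block (0.01). Tcf7l2 lost its call with limma (0.067), with no filter on low counts (0.096) and with a term for the 3 libraries (0.13). With the replicate block Tcf7l2 (0.06), Egr1 (0.079) and Atf4 (0.082) were not called, nor was Atf4 with no filter on low counts (0.053). Without the 3 libraries Tbr1 was called lower (-0.25, adjusted p = 0.042). The cause of these differences was not tested. The simulated recovery of 1.5-fold changes was 68.7% of 67 genes, in data with far fewer changed genes than were called here.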
